A study of Mus musculus with 2 samples.

Results

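Iron handling genes were described in RNA from the nucleus of mouse macrophages. The group is 10 genes taken by name from the 55536 named genes of the deposited tables: Fth1, Ftl1 and Ncoa4 for storage, Tfrc, Slc11a1 and Slc11a2 for import, Slc40a1 for export, Hmox1 for the breakdown of heme, and Aco1 and Ireb2 for regulation. Members were chosen by known role, although earlier results of these data were known by then. The cells were bone-marrow-derived macrophages (BMDM) of C57BL/6J mice, which are primary cells grown out of marrow precursors. They were given Lipid A, the lipid anchor of endotoxin and the ligand of Toll-like receptor 4, at 100 ng/ml for 12 h, were kept without it for 12 h, and were given 100 ng/ml again for 40 min. RNA of the nucleoplasmic fraction was depleted of ribosomal RNA and sequenced. There is 1 group, with 2 libraries labelled as biological replicates 1 and 2, called library 1 and library 2 here. Both carry 1 donor entry in the labels, which record neither sex nor age, so their spread may be technical and says little about animals. The RNA input was 1 µg for library 1 and 500 ng for library 2. With no untreated cells and no cytoplasmic fraction among the samples, the data give levels, transcript composition and the difference between the libraries. They give no response to Lipid A.

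Named genes summed to 19797829 expected counts in library 1 and 17213606 in library 2. The mitochondrial genome gave 2.63% of them in library 1 and 6.60% in library 2, with Wilson 95% intervals of 2.62% to 2.63% and 6.59% to 6.61%. The macrophage label was met by its markers, since 10 of 10 were detected and their summed level was 3936 TPM in library 1 and 3386 in library 2. TPM, the level unit of the deposited tables, is a read count scaled for transcript length and library depth. Of the measured erythroid markers, which would mark marrow cells full of iron and heme, 1 of 9 was detected (Alas2), the list summed to 3.24 and 2.31 TPM, and Hba-a1 and Hbb-bt were at 0. Of the neutrophil markers 1 of 10 was detected (Mmp8), with sums of 2.25 and 3.43 TPM. Of the hepatocyte markers 1 of 7 was detected (Trf), and Alb was at 0. In such bulk samples, fewer cells of a type and less RNA per cell cannot be told apart.

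Macrophages take iron up from transferrin, from phagocytosed cells and from heme, keep it in ferritin, and release it through ferroportin. The mRNAs of several of these proteins carry an iron responsive element (IRE), a short hairpin with a CAGUGN loop that the iron regulatory proteins bind when iron is scarce. In a 5′ untranslated region (UTR) the bound protein blocks translation, as in the ferritins and ferroportin, and in a 3′ UTR it protects the mRNA from decay, as in the transferrin receptor. This control acts on mature mRNA in the cytoplasm, whereas the libraries sampled RNA of the nucleus.

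The hairpins were read from the GENCODE M21 transcripts (mm10) with a search for C, 5 bases, the loop CAGTGN and 5 bases that pair with the first 5, G-U pairs included. They are shown because they sort the members into those with an element ahead of the coding sequence, those with elements behind it, and those without a match. Each is printed as DNA, 5′ to 3′ on the gene's strand, 30 bases long, with the loop in capitals. The Slc11a2 element was found with a second search that allowed 1 unpaired base in the 3′ side of the stem and was added after the first had been seen.
Fth1, 5′ UTR, chr19:9982732-9982761 (+): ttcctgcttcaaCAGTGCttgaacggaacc
Ftl1, 5′ UTR, chr7:45459778-45459807 (-): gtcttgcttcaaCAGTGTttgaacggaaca
Slc40a1, 5′ UTR, chr1:45925464-45925493 (-): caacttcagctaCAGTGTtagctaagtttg
Tfrc, 3′ UTR, chr16:32631219-32631248 (+): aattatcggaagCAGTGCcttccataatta
Tfrc, 3′ UTR, chr16:32631598-32631627 (+): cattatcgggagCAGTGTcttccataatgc
Tfrc, 3′ UTR, chr16:32631663-32631692 (+): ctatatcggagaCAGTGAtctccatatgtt
Tfrc, 3′ UTR, chr16:32631710-32631739 (+): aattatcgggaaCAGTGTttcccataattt
Slc11a2, 3′ UTR, chr15:100395152-100395181 (-): agccatcagagcCAGTGTgtttctatggtt

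The search with a fully paired stem matched 4 of the 10 members, against 1.34% of 21901 protein-coding genes. The search with either stem matched 5 members, against 4.03% of those genes. The members were chosen by known role, which for several includes this element, so their higher share was given in advance. The ferritin elements were the most alike, with 26 of 30 bases the same. The 4 Tfrc elements lay within 521 bases and shared 18 to 25 bases with one another, and they shared 9 to 13 bases with either ferritin element. In the main transcripts the loop began 126 bases before the start codon of Fth1, 164 before that of Ftl1 and 218 before that of Slc40a1. The Slc11a2 loop began 47 bases after the last base of its coding sequence, and those of Tfrc began 898 to 1389 bases after theirs. The stop codon lies within these distances. A match describes letters and is not a measured binding site. No match was found in transcripts of Slc11a1, Ncoa4, Hmox1, Ireb2 or Aco1.

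**Figure D1:**
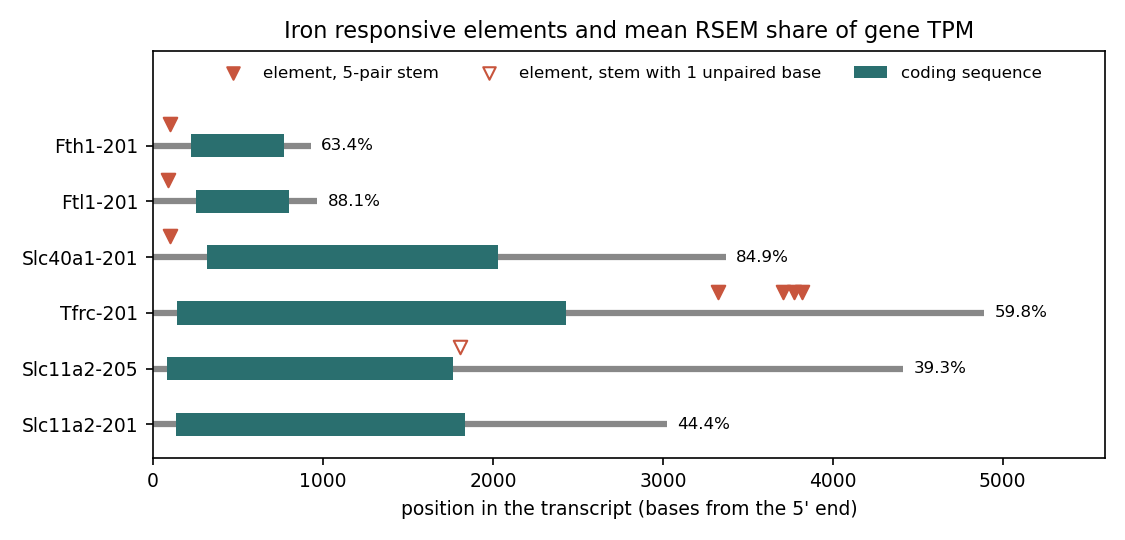
Transcripts drawn from the 5′ end (left, in bases), with the coding sequence as a box, UTRs as a line and each element as a triangle, and with the mean share of the gene's RSEM TPM at the right. The elements of Fth1, Ftl1 and Slc40a1 stand ahead of the coding sequence, the 4 of Tfrc far behind it, and Slc11a2-205 has an element that Slc11a2-201 lacks.

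All 10 members were detected, that is, had at least 10 expected counts in both libraries, against 49.9% of all protein-coding genes. The lowest member count was 426. By mean TPM, 6 members were among the highest 10% of the 10991 protein-coding genes detected, where 10% of genes stand by definition. The median member level was 52.0 TPM, against 6.38 TPM over those genes, and the median member percentile was 92.0 (90.9 in library 1 and 91.7 in library 2). The levels ran from ferritin down to the regulator Aco1 over more than 2 orders of magnitude, and Aco1 was the 1 member with a mean below the median of detected protein-coding genes. The members were chosen for their known role, so their place among all genes is a description.

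**Figure D2:**
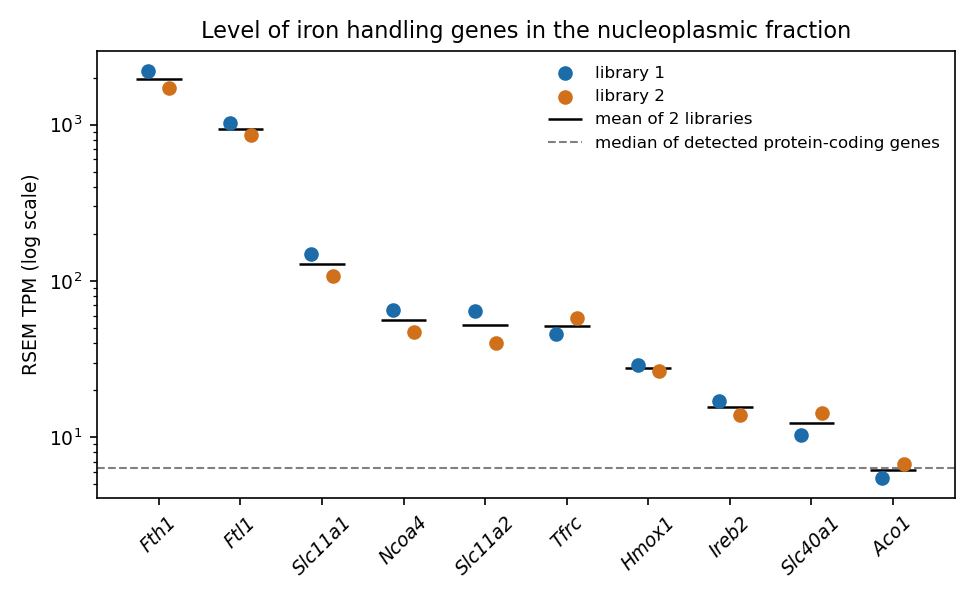
RSEM TPM of each member on a log axis, with library 1 at the left and library 2 at the right of each pair, a bar at their mean and a dashed line at the 6.38 TPM median of detected protein-coding genes. Fth1 and Ftl1 stand far above the other members, and Aco1 alone has its mean below the line.

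The storage genes held most of the group's RNA. Fth1, the heavy ferritin chain that oxidises iron as it enters the shell (ENSMUSG00000024661.7, chr19:9980598-9985098, + strand), had 2201 TPM in library 1 and 1724 in library 2. Its mean was 1963 ± 337 TPM (SD, n = 2), which placed it 3rd of the 10979 detected protein-coding genes outside the mitochondrial genome. Ftl1, the light chain, which helps the shell to mineralise iron (ENSMUSG00000050708.16, chr7:45457944-45459884, - strand), had 1027 and 856 TPM, with a mean of 941 ± 121, and stood 18th. Both libraries of Fth1 lay above both of Ftl1, and the ratio of the chains was 2.14 in library 1 and 2.02 in library 2. The kallisto tables gave 1.92 and 1.91 for the same ratio. Together the ferritins held 89.3% of the members' TPM in library 1 and 89.2% in library 2. They took 0.294% of all counts in library 1 (Wilson 95% interval 0.292% to 0.297%) and 0.269% in library 2 (0.266% to 0.271%).

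The TPM scale bears on the spread of these values. Genes that span under 400 bases held 62.7% of TPM in library 1 and 67.1% in library 2, and TPM of other genes is lowered by that share. When TPM was rescaled over detected protein-coding genes outside the mitochondrial genome alone, so that these summed to the total that TPM has over all features, Fth1 had 7916 in library 1 and 7940 in library 2, and Ftl1 had 3694 and 3940. The libraries of Fth1 nearly met on this scale, and both again lay above both of Ftl1. On the same scale the libraries stood farther apart in ratio for Tfrc (163 and 266) and Slc40a1 (37.0 and 65.6). They did so too for Aco1 (19.7 and 31.3) and Hmox1 (104 and 122). They stood closer for Slc11a1 (537 and 492), Ncoa4 (236 and 218), Slc11a2 (232 and 185) and Ireb2 (61.6 and 64.0).

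Ncoa4, the receptor that carries ferritin to the lysosome for iron release (ENSMUSG00000056234.15, chr14:32159865-32179855, + strand), had 65.5 TPM in library 1 and 47.3 in library 2. Its mean of 56.4 ± 12.8 TPM stood at percentile 92.6, high among detected genes although far under the ferritins it carries.

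Ferritin reads are shared with copies elsewhere in the genome. Of the 31-base words of Ftl1-201, 94.9% also occur in other annotated genes, read on either strand, and 7 genes hold at least 10% of them. The 7 include Gm10252, which is no copy elsewhere but lies on the other strand of Ftl1 itself. Those 7 genes had counts equal to 2.31% of Ftl1's in library 1 and 1.82% in library 2. Of the counts of Ftl1 and these genes, the deposited estimates thus gave nearly all to Ftl1. Among ferritin copies, Ftl1-ps1 on chromosome 13 had 238 and 191 expected counts by RSEM and 75.1 and 23.4 estimated counts by kallisto. Fth-ps2 on chromosome 6 had 30 and 23 counts by RSEM and 59 and 66 by kallisto. For Fth1-201 the shared words came to 12.9%, and the 1 gene with at least 10% of them, Gm6977, had 3 and 0 counts. For Ncoa4-201 they came to 53.9%, all with Gm6768, which had 43.5 and 42.5 counts. Tfrc, Hmox1, Ireb2, Slc40a1 and Aco1 shared none, while Slc11a1 and Slc11a2 shared 4.64% and 4.11%, with no gene at 10%. Gm10252, on the other strand of Ftl1, had 119 and 50.7 counts, and Gm5475, on the other strand of Slc11a2, had 114 and 31. Whether counting used the strand is not given in the sources used here, so reads of these overlaps are uncertain.

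The import genes followed. Slc11a1, the metal transporter of the phagosome membrane known as NRAMP1 (ENSMUSG00000026177.11, chr1:74375195-74386062, + strand), had 149 TPM in library 1 and 107 in library 2. Its mean was 128 ± 29.9 TPM (SD, n = 2), at percentile 97.1. C57BL/6 mice are known for an Slc11a1 allele whose protein does not work, and RNA levels say nothing about that. Slc11a2, the transporter DMT1 that moves iron out of endosomes after transferrin uptake (ENSMUSG00000023030.16, chr15:100387898-100425072, - strand), had 64.6 and 40.1 TPM, with a mean of 52.4 ± 17.3. The level of Slc11a1 was 2.31 times that of Slc11a2 in library 1 and 2.66 times in library 2. Tfrc, the transferrin receptor (ENSMUSG00000022797.16, chr16:32608920-32632794, + strand), had 45.5 TPM in library 1 and 57.7 in library 2, with a mean of 51.6 ± 8.65. The libraries of Tfrc overlapped those of Slc11a2, and those of Slc11a2 overlapped those of Ncoa4, so these 3 genes have no order beyond their spread. Tfrc stood at 0.0207 of the Fth1 level in library 1 and 0.0335 in library 2.

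Slc40a1, which encodes ferroportin, the known exporter of iron from cells (ENSMUSG00000025993.10, chr1:45908068-45926523, - strand), had 10.3 TPM in library 1 and 14.2 in library 2. Its mean of 12.3 ± 2.79 TPM stood at percentile 66.7, with 59.4 in library 1 and 73.4 in library 2. The importer Tfrc was 4.41 times its level in library 1 and 4.05 times in library 2. Hmox1, the heme oxygenase that frees iron from heme (ENSMUSG00000005413.8, chr8:75093621-75100589, + strand), had 28.9 and 26.5 TPM, with a mean of 27.7 ± 1.68 at percentile 84.0. Both libraries of Hmox1 lay above both of Slc40a1. Hmox1, Slc40a1 and the ferritins are also known as targets of the antioxidant factor NRF2, whose gene Nfe2l2 had 246.5 TPM in library 1 and 159 in library 2.

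The regulators were among the lower members, with Aco1 the lowest of all. Ireb2, iron regulatory protein 2, which the cell degrades when iron is plentiful (ENSMUSG00000032293.8, chr9:54863789-54912530, + strand), had 17.1 TPM in library 1 and 13.9 in library 2, with a mean of 15.5 ± 2.29. Aco1, iron regulatory protein 1, which works as an aconitase while it holds an iron-sulfur cluster (ENSMUSG00000028405.9, chr4:40143081-40198338, + strand), had 5.48 and 6.79 TPM. Its mean of 6.14 ± 0.926 stood at percentile 48.8, with 43.2 in library 1 and 55.3 in library 2. Ireb2 stood above Aco1 in both libraries, 3.13 times in library 1 and 2.05 times in library 2. The libraries of Ireb2 overlapped those of Slc40a1. All other neighbours in the order Fth1, Ftl1, Slc11a1, Ncoa4, Slc11a2, Tfrc, Hmox1, Ireb2, Slc40a1, Aco1 were apart, the pairs of Ncoa4 with Slc11a2 and of Slc11a2 with Tfrc excepted. An exact permutation test of 2 values against 2 cannot go below a two-sided p of 0.333, so the order carries no test.

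Transcript composition was read from the shares of each gene's TPM. The members have 71 annotated transcripts, and 38 of them had at least 10 expected counts in both libraries. The transcript with the largest mean share was protein-coding for 10 of 10 members. It was so for 87.1% of protein-coding genes with at least 100 counts in each library. Retained-intron transcripts, annotated forms that keep an intron and encode no protein, are known to stay largely in the nucleus. The 9 members that have one had a median share of 12.4% in such transcripts by RSEM. Over the 5058 protein-coding genes with such a transcript and at least 100 counts in each library it was 24.0%. The members' median was 17.2% in library 1 and 11.3% in library 2, against 25% and 22.1% over those genes. By kallisto it was 18.8% and 20.6%, against 30.9% and 28.9%, and 19.7% over the mean shares. Tfrc and Fth1 had the highest shares by RSEM, and Fth1 and Slc11a1 by kallisto. The order of Tfrc and Fth1 by RSEM depended on the scaling of TPM for length. Of RSEM's expected counts, retained-intron transcripts took 52.3% of Fth1 in library 1 and 41.3% in library 2. For Tfrc they took 25.6% and 29.7%.

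**Figure D3:**
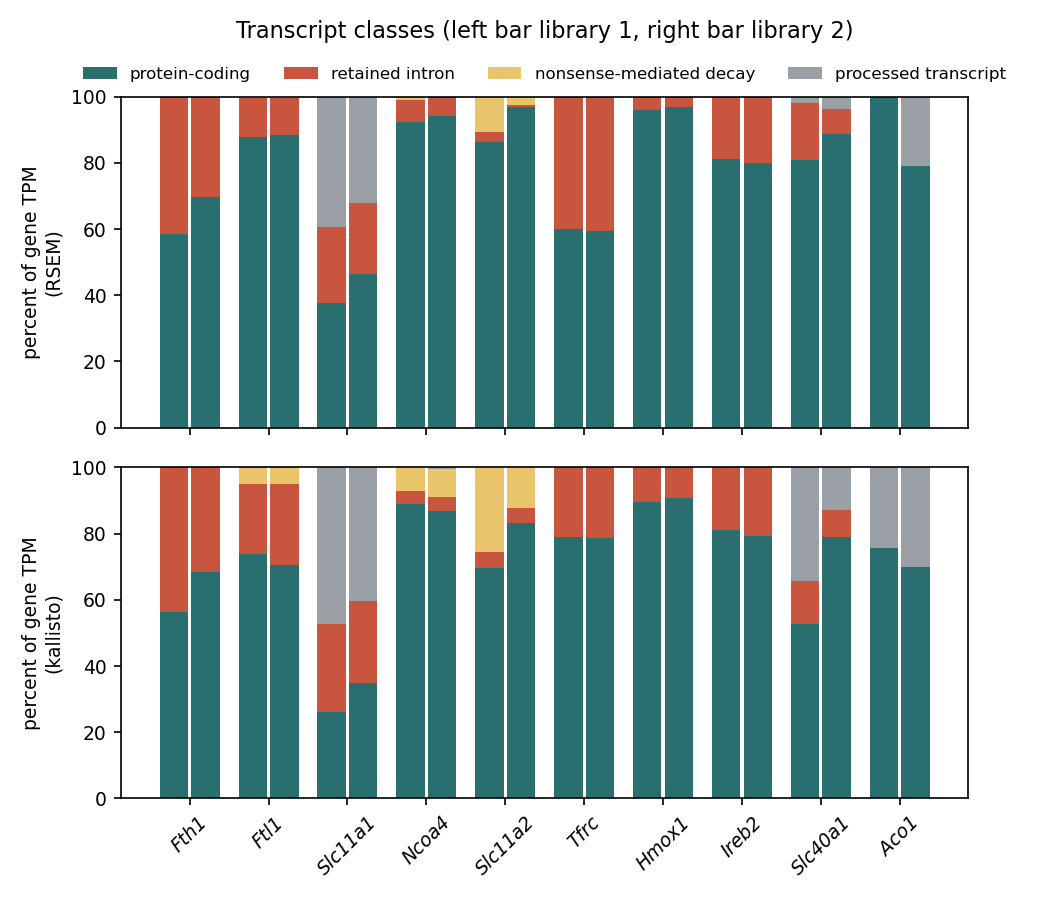
Share of each gene's TPM by transcript class, in percent, from RSEM (upper panel) and kallisto (lower panel), with library 1 as the left bar and library 2 as the right bar of each pair. Retained-intron transcripts reach 30.3% to 43.5% of Fth1 in both panels, while the Tfrc share is near 40% by RSEM and near 21% by kallisto.

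For Fth1, retained-intron transcripts held 41.4% of TPM in library 1 and 30.3% in library 2 by RSEM, and 43.5% and 31.6% by kallisto. The mean of 35.8% ± 7.87 (SD, n = 2) stood at percentile 70.7 of those 5058 genes. The coding Fth1-201 held 58.5% and 68.4%. Next came Fth1-208, a retained-intron form of 2062 bases that also contains the hairpin, with 17.3% and 13.4%. All 4 retained-intron transcripts of Fth1 had the higher share in library 1 in both programs. The share was higher in library 1 for 7 of the 9 members by RSEM, against 59.9% of those 5058 genes. By kallisto it was higher for 5 of the 9, against 56.2%.

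Tfrc had close retained-intron shares in its libraries by RSEM, 39.9% in library 1 and 40.6% in library 2, a mean of 40.2% ± 0.48 at percentile 76.7. Kallisto put it at 21.1% and 21.4%, so the libraries were alike within each program and the programs were apart. The difference lay in Tfrc-204, a retained-intron form of 3527 bases with all 4 hairpins. It held 27.7% in library 1 and 34.8% in library 2 by RSEM, and 7.01% and 16.2% by kallisto. The coding Tfrc-201 held 60.1% and 59.4% by RSEM. Transcripts with the hairpins, coding or not, held 87.8% and 94.3% of Tfrc by RSEM and 62.6% and 85.5% by kallisto.

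By RSEM the other members with such transcripts were lower. Slc11a1 had 22.8% in library 1 and 21.5% in library 2, and 26.4% and 24.8% by kallisto, above Tfrc in that program. Ireb2 had 18.8% and 20.2%. Slc40a1 had 17.2% and 7.59%, with the 2 libraries apart by 9.59 percentage points. Ftl1 had 11.6% and 11.3% by RSEM, and 20.9% and 24.3% by kallisto. Ncoa4 had 6.60% and 5.98%, Hmox1 had 4.02% and 3.25%, and Slc11a2 had 3.05% and 0.748%. The ferritin chains thus differed in this respect, with both Fth1 libraries above both Ftl1 libraries in each program. Hmox1 came almost wholly from its coding transcript, Hmox1-201, with 96.0% in library 1 and 96.8% in library 2.

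By RSEM Slc11a2 came mainly from 2 long coding transcripts that end differently, and only 1 of them carries the 3′ UTR hairpin. Slc11a2-205, with the hairpin, held 42.1% of the gene's TPM in library 1 and 36.5% in library 2. Slc11a2-201, without it, held 35.2% and 53.6%. The leader was thus Slc11a2-205 in library 1 and Slc11a2-201 in library 2. By kallisto they held less, 27.2% and 28.9% for Slc11a2-205 and 23.5% and 41.1% for Slc11a2-201. Short forms took more in that program. Slc11a2-204, of 393 bases and annotated for nonsense-mediated decay, had 25.5% and 12.2% by kallisto and 10.8% and 2.52% by RSEM. Slc11a2-203, of 718 bases, had 14.4% and 9.77% by kallisto and 8.25% and 4.71% by RSEM. Counted over Slc11a2-205 and Slc11a2-201 alone, the form with the hairpin had 54.4% in library 1 and 40.5% in library 2 by RSEM. By kallisto it had 53.7% and 41.3%. For this pair the 2 programs gave nearly the same split. The difference of 13.9 percentage points between the libraries by RSEM was 12.5 by kallisto. Forms of DMT1 mRNA with and without the element are textbook products of this gene.

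For the genes with a 5′ UTR hairpin, most of the RNA came from transcripts that contain it. The share was 75.9% in library 1 and 83.1% in library 2 for Fth1, 88.4% and 88.5% for Ftl1, and 98.2% and 96.3% for Slc40a1. By kallisto it was 74.3% and 78.8% for Fth1, 79.0% and 75.6% for Ftl1, and 65.8% and 87.1% for Slc40a1. Some short transcripts took a share by kallisto that RSEM did not give them. Slc40a1-207, of 263 bases, had 30.3% in library 1 and 6.67% in library 2 by kallisto and 0 by RSEM. Tfrc-203, of 166 bases, had 23.4% and 9.37% by kallisto and 0 by RSEM. Ncoa4-205, of 375 bases, had 24.7% and 11.5% by kallisto, and 0.229% and 0 by RSEM. These 3 were picked out after their values were seen, and shares of Slc40a1, Tfrc and Ncoa4 transcripts are uncertain to that extent.

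Of the other members, Slc11a1 was the most divided. Its coding transcripts held 37.8% in library 1 and 46.3% in library 2, and transcripts annotated as processed, with neither a coding sequence nor a retained intron, held 39.4% and 32.2%. By kallisto the coding share was 26.2% and 34.8%, and the processed share was the larger in both libraries, with 47.4% and 40.4%. TPM is scaled for length, so short forms weigh more in these shares than in counts. The processed form Slc11a1-206, of 378 bases, had 24.6% and 23.7% of TPM by RSEM. It had 138 and 91.2 of the gene's 3837 and 3237 expected counts, where the coding Slc11a1-201 had 2515 and 2316. Ireb2-201 held 79.7% and 79.8% of Ireb2, the closest pair among the leading transcripts. Aco1 has no annotated retained-intron form, and Aco1-201 held 100% in library 1 and 79.1% in library 2 by RSEM, a difference that rests on 8.68 expected counts of short transcripts in library 2. By kallisto it held 75.5% and 69.9%. The leading transcript was the same in both libraries and both programs for 7 members, with Slc11a1, Ncoa4 and Slc11a2 as the exceptions.

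The libraries were set against each other as the log2 ratio of TPM, library 1 over library 2, after the median ratio of detected protein-coding genes (0.36) had been subtracted. No member differed by more than 2-fold, where 6.01% of detected protein-coding genes did, and 3.08% of those with a mean of at least 100 counts. By kallisto the count was also 0 of 10, against 3.94%. With 10 members, 0 is close to what those shares give. By RSEM the largest differences were in Slc40a1, at -0.83 or 1.77-fold higher in library 2, Tfrc, at -0.70 or 1.63-fold, and Aco1, at -0.67 or 1.59-fold. All 3 lay below the range of -0.31 to 0.32 that held the central 50% of detected protein-coding genes by RSEM, and Slc11a2, at 0.33, lay just above it. By kallisto the order differed, with Aco1 at -0.58, Slc11a2 at 0.50, Tfrc at -0.45, Slc40a1 at -0.44 and Ncoa4 at 0.42. The mitochondrial share of counts differed as well, 2.63% in library 1 and 6.60% in library 2, as did the input RNA, and their part in these differences was not tested. With 1 library on each side no p-value can be had.

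**Figure D4:**
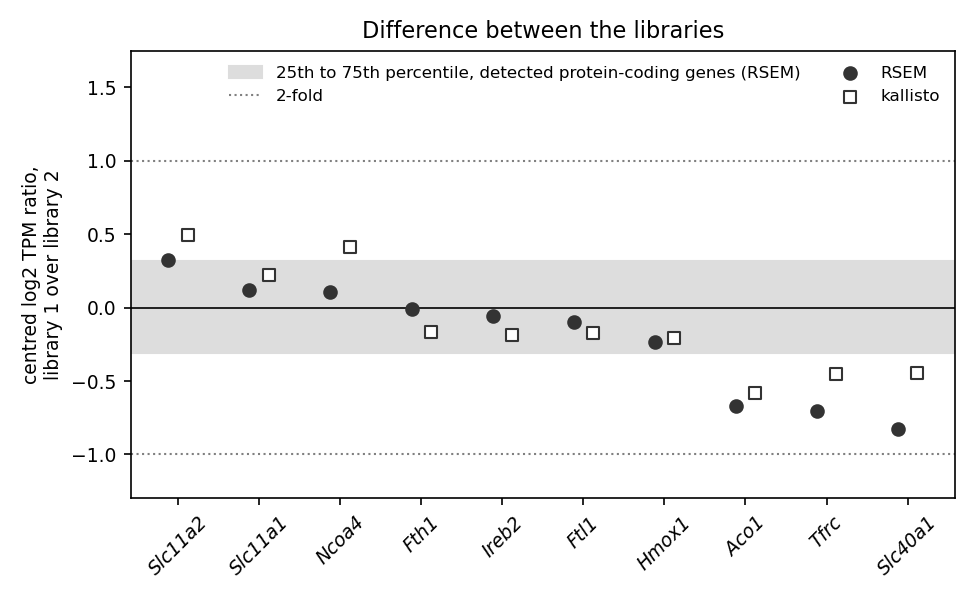
Centred log2 TPM ratio of library 1 over library 2 for each member, by RSEM (filled circles) and kallisto (open squares), with the grey band from the 25th to the 75th percentile of detected protein-coding genes and dotted lines at 2-fold. Slc40a1, Tfrc and Aco1 lie below the band in both programs, Slc11a2 lies above it in both and Ncoa4 by kallisto, and no member reaches a dotted line.

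By RSEM the other members were nearer to 0. Slc11a2 was higher in library 1 under each scaling tried except kallisto without centring, at -0.37. Fth1 stood at -0.01, Ireb2 at -0.06, Ftl1 at -0.10, Ncoa4 at 0.11, Slc11a1 at 0.12 and Hmox1 at -0.24. The sign turned in some settings. It did so for Fth1 with a pseudocount of 1, edgeR's TMM factors or DESeq2's size factors, for Ncoa4 and Slc11a1 with either set of factors, and for Ireb2 with the pseudocount. By RSEM, leaving out the centring adds 0.36 to every gene and turned Fth1, Ireb2, Ftl1 and Hmox1. By kallisto it adds -0.87 to every gene and turned Slc11a1, Ncoa4 and Slc11a2. Ftl1 and Hmox1 were lower in library 1 than in library 2 under all other settings. Slc40a1, Tfrc and Aco1 were lower in library 1 than in library 2 under each of these settings, with and without centring. The ratio of kallisto over RSEM, once centred, passed 2-fold in both libraries for 0 of 10 members, against 6.75% of detected protein-coding genes. With 10 members, 0 is close to what that share gives. The centred log2 ratio ran from -0.49, for Fth1 in library 1, to 0.40, for Ncoa4 in library 1. Without centring every member was lower by kallisto. The log2 ratio then ran from -2.17 to -1.27 in library 1 and from -0.80 to -0.28 in library 2.

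Other genes of iron biology were read from 7 lists of known function. Of 81 listed genes 79 were measured and 57 were detected. Of those, 7 were among the highest 10%, where 10% of detected protein-coding genes stand by definition, so their count is near the background. The median percentile was 92.0 for the members and 58.1 for the detected genes of these lists. By RSEM 6 of these 57 genes differed by more than 2-fold between the libraries (Steap3, Neo1, Smad6, Erfe, Urod and Hscb), against 6.01% of detected protein-coding genes. Apart from Steap3, these had at most 56 counts in a library. By kallisto Steap3, Erfe and Urod stayed under 2-fold, at -0.85, 0.60 and 0.34, while Slc25a37 (1.08) and Alad (1.13) passed it. In the uptake list 5 of 12 genes were detected. Trf, transferrin itself, was the highest with 36.4 TPM in library 1 and 27.7 in library 2. Slc39a8, a zinc and metal importer, was the lowest at 0.985 ± 0.205 TPM, and Steap2, Steap4 and Lrp2 were at 0.

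Among 12 genes of heme and hemoglobin handling 9 were detected. Lrp1, a receptor that takes up heme bound to hemopexin, was the highest at 266 ± 13.5 TPM, and Slc46a1, a folate transporter that also carries heme, was the lowest at 0.585 ± 0.0071 TPM. Cd163, the hemoglobin-haptoglobin receptor, and Hpx and Flvcr2 were below detection. Of the chaperones and storage genes 3 of 5 were detected, from Pcbp2, which delivers iron to ferritin, at 81.5 ± 18.8 TPM to its relative Pcbp1 at 19.4 ± 2.98 TPM. Mitochondrial ferritin, Ftmt, was at 0. Of the ferroxidases that work with ferroportin, ceruloplasmin (Cp) had 101 TPM in library 1 and 45.8 in library 2, a centred log2 ratio of 0.78, while Heph and Hephl1 were at 0.

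In the hepcidin list 8 of 14 measured genes were detected, between Smad4 at 9.79 ± 0.714 TPM and Erfe at 0.380 ± 0.283 TPM. Both hepcidin genes, Hamp and Hamp2, were at 0, and a count of 0 allows up to 3 counts, which is 0.152 CPM (counts scaled to library depth) in library 1 and 0.174 in library 2. Of the 12 regulators 11 were detected. Zfp36, tristetraprolin, a decay factor known to act on Tfrc mRNA in iron shortage, had 409 TPM in library 1 and 416 in library 2. Skp1a was the lowest at 6.95 ± 1.07 TPM. Epas1 was below detection. The mitochondrial list had 20 of 21 genes detected. It ran from Slc25a37, mitoferrin 1, with 72.6 TPM in library 1 and 33.8 in library 2, to Lyrm4, an iron-sulfur assembly factor, at 0.775 ± 0.148 TPM.

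**Figure D5:**
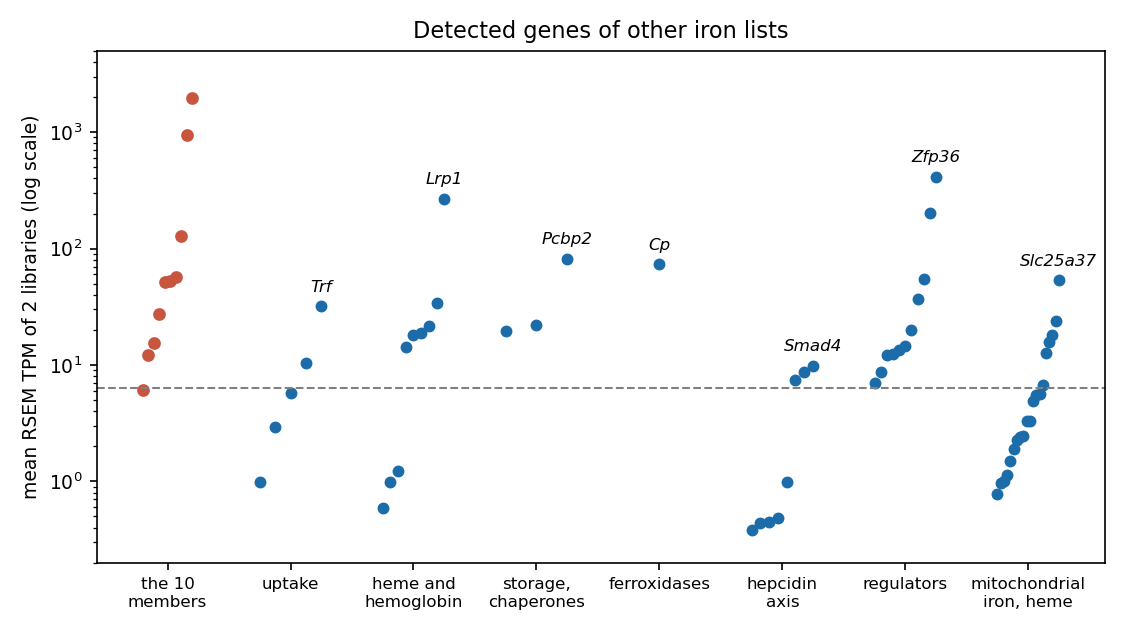
Mean RSEM TPM of the 2 libraries on a log axis for the 10 members (left) and the detected genes of 7 other iron lists, with the highest gene of each list named and a dashed line at the 6.38 TPM median of detected protein-coding genes. Only Zfp36, Lrp1 and Nfe2l2 of the other lists exceed the third member, Slc11a1, at 128 TPM.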

How the data were processed

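Each library has RSEM tables by gene and by transcript, and a kallisto table by transcript. The deposited notes beside the files name mm10 and GENCODE M21. Versions of the programs were not given in the sources used here. RSEM's expected counts and kallisto's estimated counts, neither of which need be whole, were used as the authors deposited them. TPM was computed by the authors over all features, short RNAs included, per the file headers. The percent of a gene's TPM in each transcript was deposited by the authors for RSEM and was computed here from TPM for both programs. The bounds of the credibility interval, a score of precision with no stated level, were deposited by the authors and were not printed.

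Named genes were joined by Ensembl identifier. Detection meant an expected count of at least 10 in each library, and percentiles are over detected protein-coding genes. Expected counts were rounded for the TMM factors of edgeR 4.0.16 and the size factors of DESeq2 1.42.0 (R 4.3.3), used only as alternative scalings. Other steps ran in Python 3.11.15 with pandas 2.3.3 and numpy 2.4.6. The ratio step was tested on simulated data. With 1 group and 2 libraries no test across genes was made, and values are given per library or as mean ± SD. Intervals and the limit at 0 counts reflect counting error alone, with each read treated as independent. The reads carry no molecular identifiers, so repeat reads of 1 molecule could not be set apart and the intervals may be too narrow.

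The members and lists were chosen with earlier results of these data known. The text names all 10 members, the highest and the lowest detected gene of each other list, and ferritin copies whose symbol starts with Ftl or Fth and holds ps, with 10 or more counts in either program. Other genes and transcripts named were chosen after their values were seen. Shared 31-base words were counted between each member's leading transcript and all other annotated genes. No protein sequences were used here.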

Additional observations from a re-analysis of the deposited data

How the results depend on the processing

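The median percentile of the members, 92.0, ranged from 91.3 to 91.8 when either library was left out. A count minimum of 50 gave 90.1 and no minimum gave 96.0, since each changes the genes it is set against. The order of the members kept between 5 and 10 of its 10 ranks when a library was left out. The 5 came from library 2 alone, where Tfrc stood above Ncoa4 and Slc11a2, and Slc40a1 above Ireb2. With kallisto all 10 ranks held. Between 5 and 7 members stood in the top 10% under the alternatives, and 10 of 10 were detected in each. By RSEM no member passed 2-fold between the libraries without centring, with a pseudocount of 1, or with TMM or size factors. By kallisto none did after centring. Without centring, kallisto put Fth1, Ftl1, Tfrc, Hmox1, Ireb2, Slc40a1 and Aco1 past 2-fold, with log2 ratios from -1.03 (Fth1) to -1.45 (Aco1). The median ratio that centring removes was 0.36 by RSEM and -0.87 by kallisto. Levels of 10 of 10 members moved by more than the spread between libraries under kallisto TPM, which is computed over other features, and under rescaling to protein-coding genes. Retained-intron shares moved by more than that for 6 of 9 members under kallisto, an alternative chosen after seeing the data. The leading transcript changed for 1 member by kallisto (Ncoa4) and for 1 without library 2 (Slc11a2). Ratios between the libraries cannot be had with a library left out. No paired analysis was possible because there is 1 group. Depth limits the transcript shares of Aco1, which had 426 and 446 counts.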
